A study of Mus musculus with 8 samples.

Results

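Pecam1, Cdh5, Esam, Emcn, Cldn5, Eng, Tek, Tie1, Ly6c1 and Sox18 are genes that mark blood vessel endothelium, several of them building its cell junctions. They were found by their gene name in the scanner files. All 10 were on the array, with 11 probes of 55681, and all 11 probes passed the filter on dim signal, so that 10 of the 15343 genes tested are described. The data are 8 Agilent 2-colour arrays of sciatic nerve RNA. Of these, 4 arrays were of male SOD1G93A mice aged 60 days, transgenic for a mutant human SOD1 and used to model amyotrophic lateral sclerosis. The other 4 arrays were of male wild-type mice of that age, described as non-transgenic. Nerve RNA was labelled with Cy3 on each array. The Cy5 channel held the same pooled RNA throughout, from neonatal organs (heart, liver, kidney) of both genotypes per the labels, and the dyes were never exchanged. The strain, the promoter of the transgene and the number of mice behind each array are not given in the sources used here.

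Endothelial cells line every vessel and hold on to each other through adherens junctions, built on VE-cadherin, and through tight junctions, where claudin-5 seals the gap between neighbouring cells. In peripheral nerve the capillaries inside the fascicles form part of the blood-nerve barrier, and their tight junctions are what restricts passage from blood into the endoneurium. Receptors such as Tie2 and endoglin carry signals that keep vessels quiescent, and SOX transcription factors take part in setting endothelial identity.

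Whole nerve was measured, so fewer endothelial cells and less RNA per cell cannot be told apart. The 8 arrays shared a slide and a scan date. The first number of their position on it differed between the genotypes, so an effect of position cannot be told apart from that of genotype. The median Cy3 intensity of the kept spots lay between 374 on SOD1G93A array 1 and 713.5 on wild-type array 1, with the other 6 arrays between 526.8 and 597.8. Schwann cell markers checked the tissue, with 14 of 14 above the reference pool in both genotypes. Of the 10 endothelial genes, 9 were well above background on all 8 arrays, and Tek missed this on 1 SOD1G93A array. Of the genes listed for lymphatic endothelium, Prox1 and Flt4 were not well above background on any array. Lyve1, Pdpn and Reln were so on all 8 arrays, and Mmrn1 on 2 SOD1G93A and 3 wild-type arrays.

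The probes are 60 bases long, and a few are shown because they tell which transcript was read. Tek and Tie1 encode related receptors, and their probes read corresponding stretches of the transcripts. The capitals mark the bases that the 2 probes share when they are aligned: 39 of 57 overlapping bases, or 68.4%, with a longest shared run of 8 bases.
Tek: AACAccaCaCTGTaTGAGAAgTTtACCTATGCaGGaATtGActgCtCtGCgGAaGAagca
Tie1: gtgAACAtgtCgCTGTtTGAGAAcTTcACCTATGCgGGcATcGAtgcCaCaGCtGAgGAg
The probe of Pecam1, which was on 2 spots, and that of Emcn are written with no capitals, since no base is marked in them. The second Ly6c1 probe is shown because Ly6c1 has a close relative, Ly6c2, whose name no probe of these files carries, so its share in the Ly6c1 signal is not analysed here.
Pecam1: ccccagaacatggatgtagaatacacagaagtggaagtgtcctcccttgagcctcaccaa
Emcn: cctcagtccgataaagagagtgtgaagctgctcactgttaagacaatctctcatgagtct
Ly6c1: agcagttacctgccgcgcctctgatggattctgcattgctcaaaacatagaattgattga
Among all 55 pairs of the 11 probes, the longest run of bases in common was 9.

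Values below are log2 ratios of nerve over the reference pool, and a difference is SOD1G93A minus wild-type on that scale. Every one of the 10 genes had a lower mean in SOD1G93A nerve. The differences lay between -0.82 for Ly6c1 and -0.32 for Tie1, with a median of -0.51, or 0.700 of the wild-type level. In the Cy3 channel alone the differences were -0.75 to -0.27, and in the Cy5 channel, which held the pool, they were -0.08 to 0.10. Over all 15343 genes the median difference was -0.02, and 54.7% of genes had a difference below 0. None of the 10 passed the test at an adjusted p under 0.05 (limma with Benjamini-Hochberg adjustment over all genes), where 0.163% of all genes were called, and 0.0912% were called as lower. Their adjusted p-values ran from 0.136 to 0.469. At an unadjusted limma p under 0.05, 7 of the 10 were lower, beside 6.57% of all genes. For 2 of the 10, Esam and Emcn, the 4 SOD1G93A arrays all lay below the 4 wild-type arrays, beside 4.33% of all genes that were lower in this way.

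**Figure D1:**
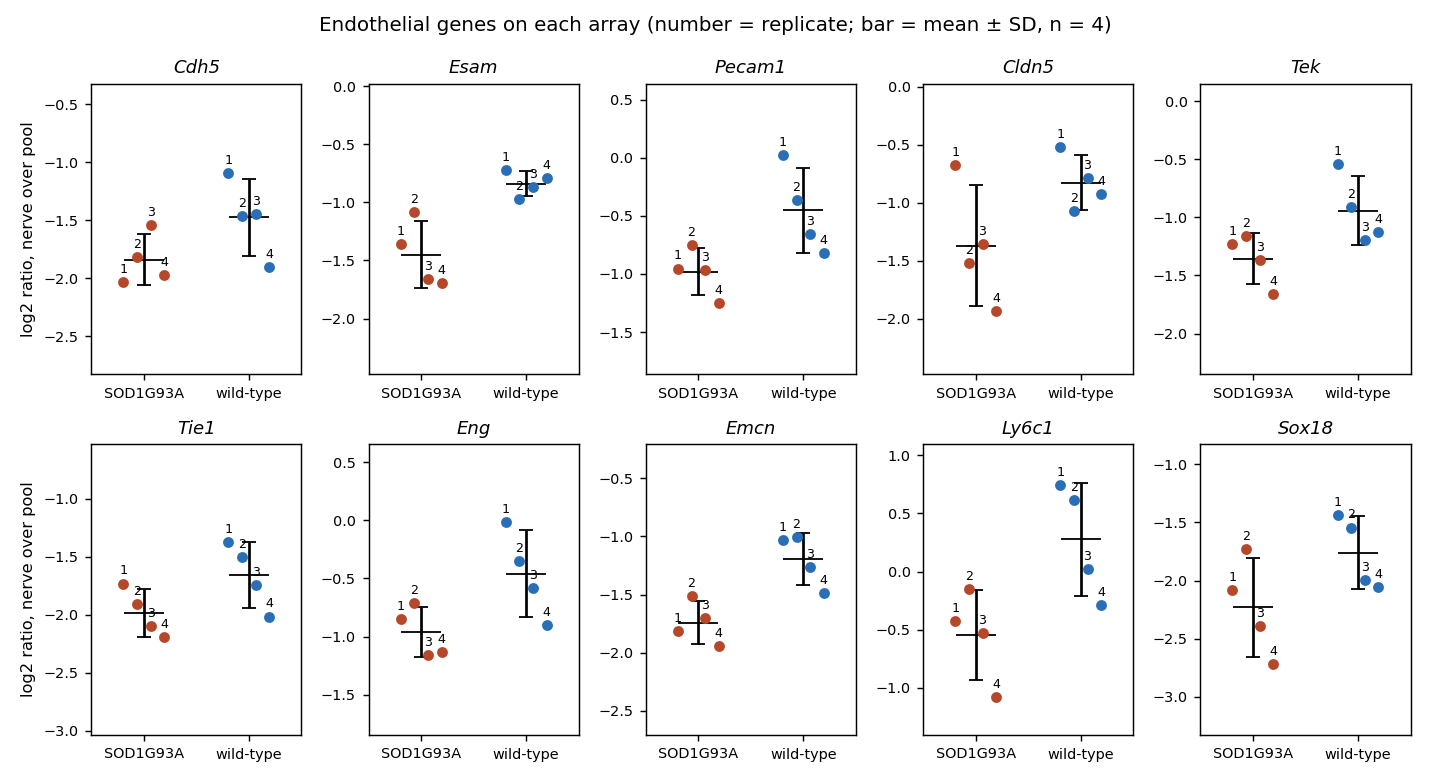
Log2 ratio of nerve over reference pool on the y axis for each of the 10 endothelial genes, with the 4 SOD1G93A arrays left of the 4 wild-type arrays and bars at the mean ± SD. Esam and Emcn show no overlap between the genotypes, while wild-type array 4 lies within the SOD1G93A range for 7 of the 10 genes.

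Cdh5 encodes VE-cadherin, the homophilic cadherin of the endothelial adherens junction (probe at chr8:106668159-106668218, mm9, + strand). Its ratio was -2.03, -1.81, -1.54 and -1.97 in SOD1G93A nerve and -1.09, -1.46, -1.45 and -1.91 in wild-type nerve. Wild-type array 4 sat among the SOD1G93A arrays and the other 3 wild-type arrays were above them. The mean was -1.84 ± 0.22 in SOD1G93A and -1.48 ± 0.33 in wild-type nerve (SD, n = 4 each), and the difference of -0.36 ± 0.17 (SE) had an limma adjusted p of 0.469. Without wild-type array 1 alone it was -0.23.

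Esam encodes an immunoglobulin family adhesion molecule of endothelial tight junctions and platelets (chr9:37345795-37345854, + strand). It gave -1.36, -1.08, -1.66 and -1.70 in SOD1G93A nerve, against -0.72, -0.97, -0.87 and -0.79 in wild-type nerve. The wild-type arrays lay close together and above every SOD1G93A array. Means were -1.45 ± 0.29 in SOD1G93A and -0.84 ± 0.11 in wild-type nerve (SD, n = 4 each). The difference of -0.61 ± 0.14 (SE) left 0.655 of the wild-type level, with an limma adjusted p of 0.136 and an exact permutation p of 0.0286 (2-sided), the smallest that 4 against 4 arrays can give. With array weights in the fit the difference was -0.65 and the limma adjusted p was 0.0460, the one alternative in which a gene of the 10 was called.

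Pecam1, or CD31, is an adhesion molecule between endothelial cells that is also found on platelets and leukocytes (chr11:106540864-106540923, - strand). SOD1G93A arrays had -0.95, -0.75, -0.97 and -1.25, and wild-type arrays had 0.02, -0.37, -0.65 and -0.82. Only wild-type array 4 reached into the SOD1G93A range. The difference was -0.53 ± 0.18 (SE; limma adjusted p = 0.320). Cldn5, the sealing claudin of endothelial tight junctions (chr16:18778046-18778105, + strand), had -0.67, -1.52, -1.36 and -1.93 in SOD1G93A nerve and -0.52, -1.07, -0.79 and -0.92 in wild-type nerve. SOD1G93A array 1 was higher than 3 of the wild-type arrays, and the SOD1G93A arrays had the wider spread, with an SD of 0.52, against 0.24 in wild-type nerve. Its difference was -0.54 ± 0.24 (SE; limma adjusted p = 0.438), and it was -0.36 without SOD1G93A array 4.

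Tek encodes Tie2, the receptor of the angiopoietins (chr4:94540624-94540683, + strand). Its ratio was -1.23, -1.16, -1.37 and -1.66 in SOD1G93A nerve and -0.54, -0.91, -1.19 and -1.12 in wild-type nerve. The ranges met only at wild-type array 3 and SOD1G93A array 2. The difference was -0.41 ± 0.16 (SE; limma adjusted p = 0.378), and Agilent's processed signals gave -0.83 for this dim probe. These signals also gave -0.80 for Pecam1 and -0.79 for Emcn, but smaller differences for Esam (-0.58) and Cdh5 (-0.31). Pecam1 and Emcn passed the background flag on all 8 arrays. With normexp offset 0, Tek had -0.64, Pecam1 -0.70 and Emcn -0.69, while Esam had -0.64 and Cdh5 -0.38. Tie1, which has no well-established ligand of its own and modulates Tie2 (chr4:118144132-118144191, - strand), had -1.73, -1.90, -2.10 and -2.19 in SOD1G93A nerve, against -1.37, -1.50, -1.74 and -2.01 in wild-type nerve. Its groups overlapped through wild-type arrays 3 and 4. The difference was -0.32 ± 0.15 (SE; limma adjusted p = 0.469), the smallest of the 10 in size.

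Eng encodes endoglin, a co-receptor for ligands of the TGF-beta and BMP family on endothelium (chr2:32537268-32537327, + strand). It stood at -0.85, -0.71, -1.16 and -1.13 in SOD1G93A nerve and at -0.01, -0.35, -0.58 and -0.90 in wild-type nerve. Wild-type array 4 was lower than SOD1G93A arrays 1 and 2, and the other wild-type arrays were above all SOD1G93A arrays. The difference was -0.50 ± 0.19 (SE; limma adjusted p = 0.355).

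Emcn encodes endomucin, a sialomucin of venous and capillary endothelium (chr3:137086389-137086448, + strand). SOD1G93A arrays had -1.81, -1.51, -1.71 and -1.94, and wild-type arrays had -1.03, -1.01, -1.26 and -1.48. The lowest wild-type array was just above the highest SOD1G93A array, with no overlap. Means were -1.74 ± 0.18 in SOD1G93A and -1.20 ± 0.22 in wild-type nerve (SD, n = 4 each), a difference of -0.55 ± 0.13 (SE) with an limma adjusted p of 0.169 and an exact permutation p of 0.0286.

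Ly6c1 encodes a GPI-anchored surface protein of mouse endothelium and of some leukocytes. Its brighter probe (chr15:74875495-74875554, - strand) had -0.43, -0.15, -0.53 and -1.08 in SOD1G93A nerve, against 0.75, 0.62, 0.02 and -0.28 in wild-type nerve. The difference of -0.82 ± 0.26 (SE; limma adjusted p = 0.285) was the largest of the 10 in size. The second probe (chr15:74877785-74877844, - strand), whose sequence is given above, had 0.05, 0.68, 0.17 and -0.13 in SOD1G93A nerve and 1.37, 1.38, 0.71 and 0.60 in wild-type nerve. On both probes wild-type arrays 1 and 2 were the highest, SOD1G93A array 4 was the lowest and the genotypes overlapped. The second probe gave -0.82 ± 0.23 (SE; limma adjusted p = 0.234 in the fit with 1 row per probe).

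Sox18 encodes a transcription factor of the SOXF group, expressed in developing and adult endothelium (chr2:181404789-181404848, - strand). The values were -2.08, -1.73, -2.39 and -2.72 in SOD1G93A nerve and -1.44, -1.54, -2.00 and -2.06 in wild-type nerve. SOD1G93A array 2 was higher than wild-type arrays 3 and 4, so the ranges overlapped. The difference was -0.47 ± 0.22 (SE; limma adjusted p = 0.461), and it was -0.31 without SOD1G93A array 4.

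**Figure D2:**
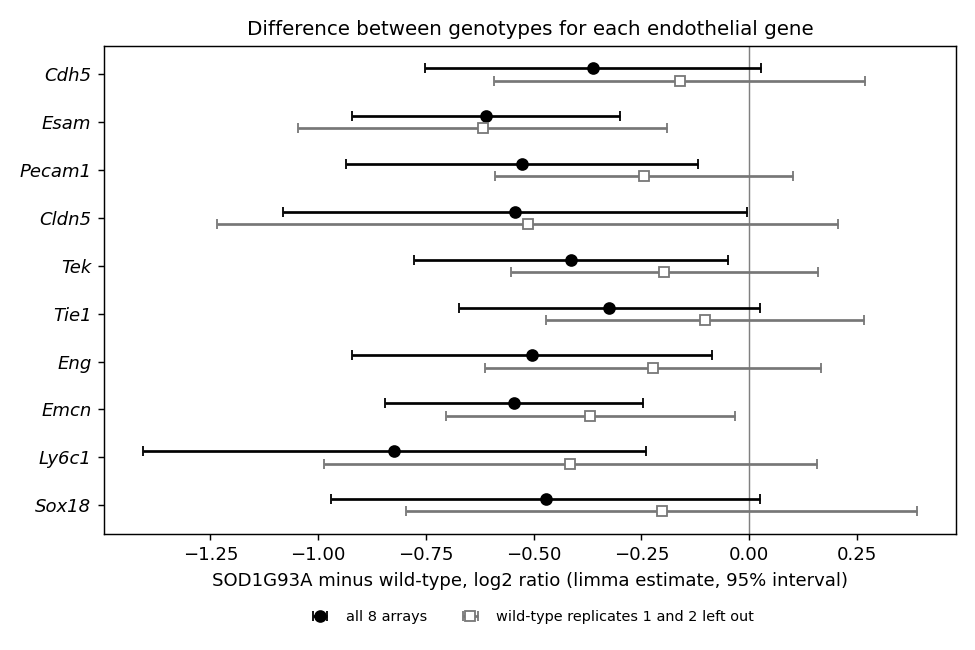
Difference between SOD1G93A and wild-type nerve in log2 ratio on the x axis for each of the 10 genes, with its 95% confidence interval, from all 8 arrays and with wild-type arrays 1 and 2 left out. All 10 differences lie below 0 in both fits, and 7 of the 10 intervals from all arrays exclude 0. With wild-type arrays 1 and 2 left out, only the intervals of Esam and Emcn do. The intervals are not adjusted for the number of genes.

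The same arrays stood at the ends for most of the 10 genes. Wild-type array 1 was the highest of all 8 arrays for 9 genes and wild-type array 2 for the remaining gene. SOD1G93A array 4 was the lowest for 8 genes. Wild-type array 4 lay within the SOD1G93A range for 7 genes and wild-type array 3 for 4 genes, while SOD1G93A array 2 lay within the wild-type range for 7. With each gene centred on its mean over the 8 arrays, the median over the 10 genes was -0.18, -0.03, -0.27 and -0.52 on the SOD1G93A arrays and 0.57, 0.34, 0.14 and -0.08 on the wild-type arrays. SOD1G93A array 2 and wild-type array 4 were thus in reversed order by this measure.

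Wild-type arrays 1 and 2 were also set apart by transcripts of other cell types. The centred median of 11 measured skeletal muscle genes was 2.85 on wild-type array 1 and 1.81 on wild-type array 2, against -0.93 to -0.65 on the SOD1G93A arrays and -0.74 and -0.61 on wild-type arrays 3 and 4. For 13 adipocyte genes it was 0.88 and 0.87 on wild-type arrays 1 and 2 and -1.33 on SOD1G93A array 4, with the other arrays between -0.35 and 0.11. For 13 pericyte and smooth muscle genes it was 0.52 and 0.44 on wild-type arrays 1 and 2, with -0.56 to -0.13 on the SOD1G93A arrays and 0.03 and -0.18 on the other wild-type arrays. By genotype, 11 of 11 skeletal muscle genes (median difference -1.62), 13 of 13 adipocyte genes (-0.78) and 11 of 13 pericyte and smooth muscle genes (-0.51) were lower in SOD1G93A nerve. In each list 0 were called by limma, and 6, 4 and 6 genes were lower at an unadjusted p under 0.05, beside 6.57% of all genes. Without wild-type arrays 1 and 2 the median differences were -0.15 for skeletal muscle, -0.27 for adipocyte and -0.17 for pericyte and smooth muscle genes. The part of these cell types in the differences of the endothelial genes was not tested.

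**Figure D3:**
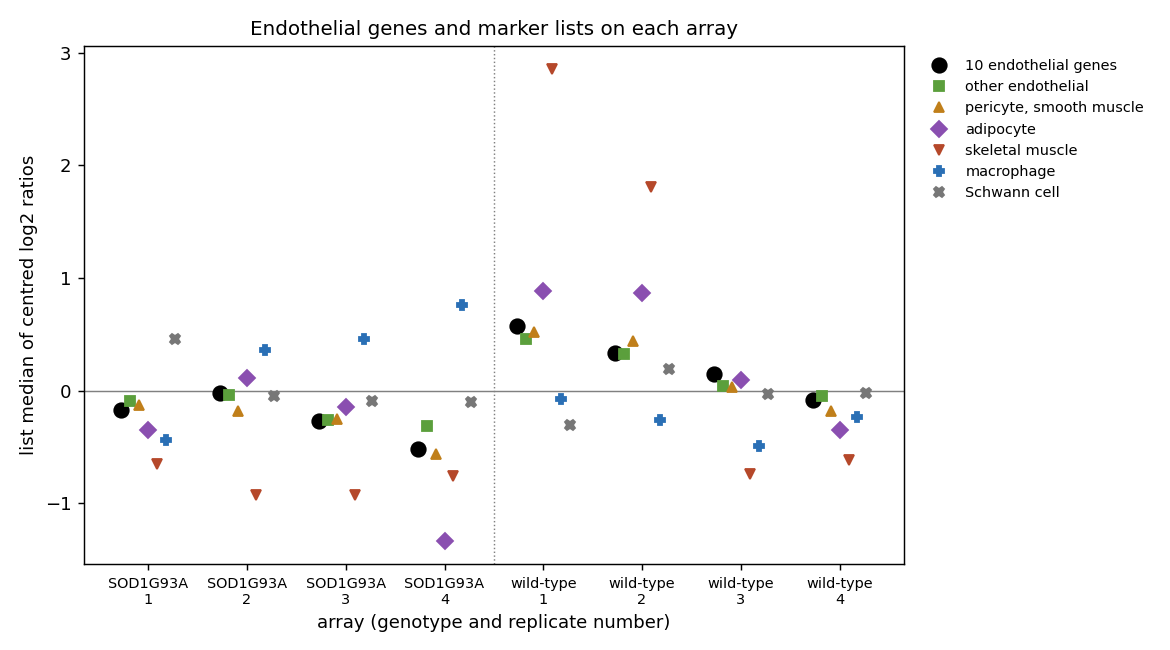
Median over each gene list of log2 ratios centred per gene (y axis) on each of the 8 arrays (x axis), with the SOD1G93A arrays left of the wild-type arrays. Skeletal muscle genes stand at 2.85 and 1.81 on wild-type arrays 1 and 2 and below 0 on the other 6 arrays, and the 10 endothelial genes are highest on the same 2 arrays.

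With wild-type arrays 1 and 2 left out, the 4 SOD1G93A arrays were set against wild-type arrays 3 and 4. All 10 differences stayed below 0, where 55.4% of all genes were below 0, and their median was -0.23, or 0.850 of the wild-type level. None was called (limma adjusted p of 0.481 to 0.928), and Esam and Emcn were the 2 genes at an unadjusted p under 0.05, beside 4.4% of all genes lower in this way. Esam had -0.62, close to its value with all arrays, and Cldn5 had -0.51. Emcn had -0.37. The other 7 shrank by more than 1.5 times: Ly6c1 to -0.42, Pecam1 to -0.24, Eng to -0.22, Tek and Sox18 to -0.20, Cdh5 to -0.16 and Tie1 to -0.10.

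Genes that act with these receptors and junctions were described from lists by pathway, and 0 genes were called in any of them by limma. Of 9 measured genes of the angiopoietin and Tie list, 8 were lower in SOD1G93A nerve and 3 of these at an unadjusted p under 0.05, beside 6.57% of all genes, with a median difference of -0.11. Without wild-type arrays 1 and 2, 5 of the 9 were lower and 0 at that p, beside 4.4% of all genes. Ptprb, the vascular endothelial phosphatase VE-PTP that restrains Tie2, had a difference of -0.88 ± 0.26 (SE; limma adjusted p = 0.260). Svep1, an extracellular matrix protein that binds Tie1, had -0.70 ± 0.28 (limma adjusted p = 0.379), and Angptl1, an angiopoietin-like protein, had -0.36 ± 0.15 (limma adjusted p = 0.427). Of the ligands, Angpt2, whose action on Tie2 depends on context, had -0.37 ± 0.18 (limma adjusted p = 0.488) and Angpt1, the agonist, had 0.06 ± 0.17 (limma adjusted p = 0.915). Leaving out wild-type arrays 1 and 2 gave -0.46 for Ptprb, -0.35 for Svep1, -0.17 for Angptl1, -0.14 for Angpt2 and 0.31 for Angpt1.

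Of 8 measured VEGF ligands and receptors, 6 were lower, with a median of -0.07. At an unadjusted p under 0.05, 0 of these were lower, beside 6.57% of all genes. The receptor Kdr had 0.08 ± 0.15 (SE; limma adjusted p = 0.866) and the decoy receptor Flt1 had -0.37 ± 0.24 (limma adjusted p = 0.593). The ligands Vegfb and Vegfa had -0.15 and -0.20 (limma adjusted p of 0.574 and 0.592). Around endoglin, 10 of 14 genes of the BMP and TGF-beta pathway were lower, with a median of -0.11. Of these, 2 were lower at an unadjusted p under 0.05, beside 6.57% of all genes. The ligand Bmp4 had -0.43 ± 0.13 (limma adjusted p = 0.281), the inhibitory Smad6 had -0.27 ± 0.11 (0.391) with only 2 SOD1G93A arrays well above background, and the receptor Tgfbr1 had 0.17 ± 0.08 (0.471). Acvrl1, which encodes the receptor ALK1 that works with endoglin, had -0.06 ± 0.12 (limma adjusted p = 0.860). With wild-type arrays 1 and 2 left out, Flt1 had -0.08, Vegfa -0.05, Vegfb -0.09, Bmp4 -0.21 and Acvrl1 0.09. In that fit 5 of the 8 VEGF genes and 8 of the 14 around endoglin were lower. At an unadjusted p under 0.05 it was 0 in either list, beside 4.4% of all genes.

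Among 10 measured partners of the adherens junction, 7 were lower, with a median of -0.04. At an unadjusted p under 0.05, 2 of these were lower, beside 6.57% of all genes. Cdh13, a GPI-anchored cadherin, had -0.76 ± 0.27 (SE; limma adjusted p = 0.342), and Rasip1, a Ras-interacting protein of endothelium, had -0.38 ± 0.17 (0.438). When wild-type arrays 1 and 2 were left out, Cdh13 had -0.35 and Rasip1 had -0.16. The catenins Ctnna1 and Ctnnb1, which most cell types use, had -0.16 ± 0.10 and -0.03 ± 0.13 (limma adjusted p of 0.577 and 0.955), and -0.29 and -0.02 without wild-type arrays 1 and 2. Of 10 tight junction partners, 9 were lower, with a median of -0.10. At an unadjusted p under 0.05, 2 of these were lower, beside 6.57% of all genes. The adhesion molecule Jam2 had -0.24 ± 0.07 (limma adjusted p = 0.243). Cldn11, the claudin of myelin in the central nervous system, had -0.96 ± 0.28 (limma adjusted p = 0.255). Leaving out wild-type arrays 1 and 2 gave -0.22 for Jam2 and -1.16 for Cldn11. In that fit 1 adherens junction gene and 3 tight junction genes were lower at an unadjusted p under 0.05, beside 4.4% of all genes.

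The transcription factors of endothelium did not share a direction. Of 16 measured, 9 were lower, 3 of them at an unadjusted p under 0.05, beside 6.57% of all genes. At that level 2 were higher, beside 4.84% of all genes. Without wild-type arrays 1 and 2, 8 of the 16 were lower and 0 of these at that p, beside 4.4% of all genes. The 2 higher genes were Klf2, a factor induced by laminar flow, with 0.82 ± 0.24 (SE; limma adjusted p = 0.241) and Klf4, its relative, with 0.69 ± 0.22 (0.281). For Klf4 all SOD1G93A arrays lay above all wild-type arrays, where 8% of all genes had no overlap in either direction. Without wild-type arrays 1 and 2 Klf2 had 1.04 and Klf4 had 1.08, Sox17 had -0.41, Sox7 had 0.02 and Fli1 had 0.31. For Sox17 all SOD1G93A arrays lay below all wild-type arrays, beside 4.33% of all genes. Of the same SOXF group as Sox18, it had -0.46 ± 0.16 (limma adjusted p = 0.316). Sox7, the other member of that group, had -0.12 ± 0.15 (0.779) and was well above background on 1 SOD1G93A and 3 wild-type arrays. The ETS factor Fli1 had 0.07 ± 0.15 (limma adjusted p = 0.889), and its relative Erg was well above background on only 3 of 8 arrays and was not tested.

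A list of 21 other endothelial genes had 18 lower in SOD1G93A nerve, 9 of them at an unadjusted p under 0.05, beside 6.57% of all genes, with a median of -0.38. Without wild-type arrays 1 and 2, 3 were lower at that p, beside 4.4% of all genes, and the median was -0.13. The 3 with the smallest p were Robo4, an endothelial roundabout receptor, with -0.75 ± 0.13 (SE; limma adjusted p = 0.0774), Vwf, or von Willebrand factor, with -0.62 ± 0.16 (0.190), and Mmrn2, an endothelial matrix protein, with -0.89 ± 0.26 (0.250). Without wild-type arrays 1 and 2 these had -0.65, -0.38 and -0.54. The centred median of this list was -0.32 to -0.04 on the SOD1G93A arrays and -0.05 to 0.46 on the wild-type arrays. On SOD1G93A array 4 it was -0.32, against -0.52 for the 10 genes. Pericyte and smooth muscle genes had -0.56 on that array and -0.18 to 0.52 on the wild-type arrays. Running with the 10 genes was thus not particular to endothelial lists.

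**Figure D4:**
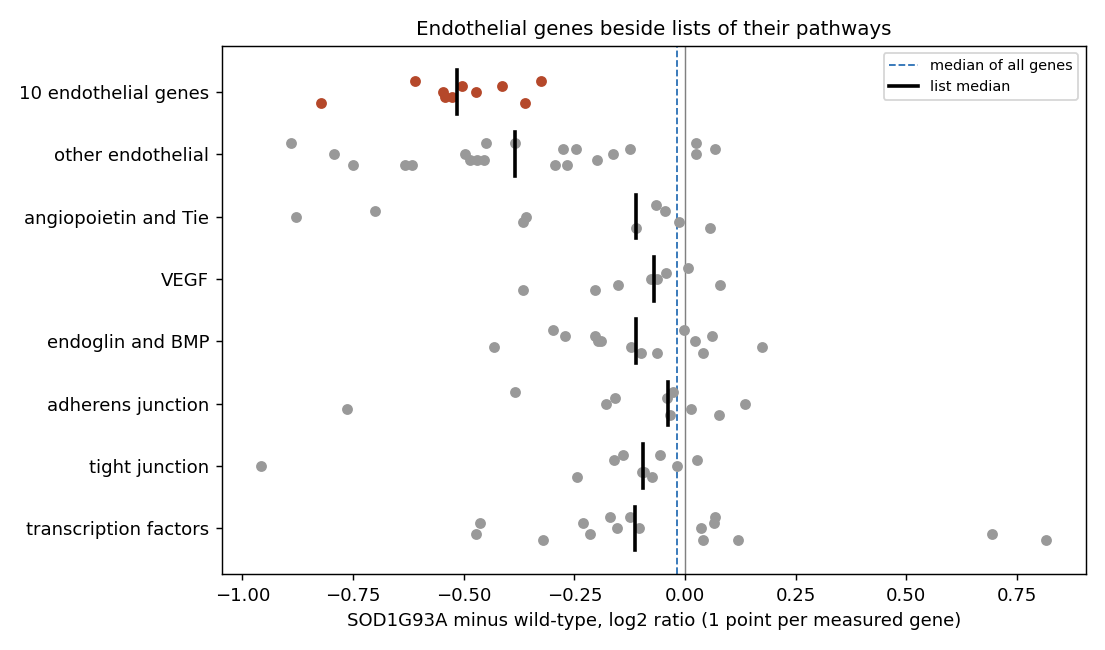
Difference between SOD1G93A and wild-type nerve in log2 ratio (x axis), 1 point per measured gene, for the 10 endothelial genes and lists of other endothelial genes and of their pathways. The medians are -0.51 for the 10 genes, -0.38 for the other endothelial genes and between -0.11 and -0.04 for the 6 pathway lists.

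The genes whose profile over the 8 arrays was nearest to the mean profile of the 10 were found by the root mean square of the difference in centred log2 ratio. They were Fitm2, which acts in lipid droplet formation (0.0531), She (0.0810), Icam2, an endothelial adhesion molecule (0.0832), Rasip1 (0.0958) and B230114P17Rik (0.108). The median over all other genes was 0.372, and the 10 genes themselves lay between 0.0757 for Pecam1 and 0.293 for Cldn5. Cldn5 was therefore the gene of the 10 that followed the shared profile least.

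The stretch around the transcription start was read from RefSeq for the genes in its table of GRCm38.p6, 250 bases before to 50 after the start. The table held 6 of the 10 genes, in 7 windows. Letters of 3 motifs were searched on both strands, and none overlapped another in the windows shown. For ETS sites GGAAG was searched, a form of the GGAA core, and GGAA followed by another base was not counted. A core of SOX sites was taken as AACAAT. The site of GATA factors was written AGATAA. Tie1 and Tek are shown as the related pair of receptors described above. Capitals mark the matches on either strand. Tie1 (chr4:118489800-118490099, - strand) holds GGAAG 7 times and Tek (chr4:94739039-94739338, + strand) holds it 0 times, with 1 AACAAT and 1 AGATAA.
Tie1: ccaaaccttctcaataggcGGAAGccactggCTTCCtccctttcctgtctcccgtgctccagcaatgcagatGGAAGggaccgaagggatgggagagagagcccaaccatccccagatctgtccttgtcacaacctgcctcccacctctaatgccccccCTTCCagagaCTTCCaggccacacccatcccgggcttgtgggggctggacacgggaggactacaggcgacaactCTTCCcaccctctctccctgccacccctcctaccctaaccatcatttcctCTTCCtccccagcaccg
Tek: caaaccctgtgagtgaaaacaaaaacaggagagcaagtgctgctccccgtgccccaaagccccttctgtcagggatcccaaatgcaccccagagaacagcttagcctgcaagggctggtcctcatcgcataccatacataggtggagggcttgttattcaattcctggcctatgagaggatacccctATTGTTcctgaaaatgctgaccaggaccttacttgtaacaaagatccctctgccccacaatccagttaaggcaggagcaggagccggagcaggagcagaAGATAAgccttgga
GGAAG was in 5 of the 7 windows and in 71.4% of all 32851 windows of that length. The 2 windows of Ly6c1 share bases, and both are among these 5. AACAAT was in 2 of the 7, beside 10.7% of all, and AGATAA in 1 of the 7, beside 11.2%. These letters are a description and were not set against the values of the arrays.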

How the data were processed

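Sciatic nerve RNA was measured on 4 arrays of SOD1G93A and 4 arrays of wild-type mice. Linear intensity and local background per spot were deposited by the authors as scanner output, from Feature Extraction 11.5.1.1 per the file headers (11.0.1.1 in the submitters' processing notes, which also list limma). A series table of log10 ratios, Cy5 over Cy3, was also deposited and served, with its sign turned, as an alternative. Flags and names were the other deposited columns. Here mean spot intensity was corrected with normexp (offset 50) against the median background and normalized by loess within arrays. Control spots had no weight and outlier spots were left out. Probes had to exceed background clearly (Agilent's flag, Cy3) on 4 or more of 8 arrays, which 19838 of 55681 did, with 1 probe per gene, the one with the highest mean Cy3. The log2 ratios of Cy3 over Cy5 were computed from the deposited intensities and tested with limma 3.58.1 in R 4.3.3 (2-sided, Benjamini-Hochberg over 15343 genes). The number of arrays limits precision, and p-values measure the spread between these arrays. No spot of the genes was flagged as saturated in Cy3, and the Cy5 flag was not read.

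The genes, the lists and the alternatives were chosen with earlier results of these data known, so no count over them is independent support. Named genes were the 10 with every probe, the 3 of smallest p in each pathway list and in the list of other endothelial genes, a set of named partners, and the 5 nearest profiles; 1 gene so chosen is not reported here. Alternatives changed the background correction, the normalization, the channel, the filter, the probe rule and the variance model, added a replicate block or array weights, used the series table, and left out arrays.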

Additional observations from a re-analysis of the deposited data

How the results depend on the processing

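All 10 endothelial genes had a difference below 0 in each alternative in which they were measured, and Tek was absent from the one that asked for signal on all 8 arrays. Their median difference was -0.59 to -0.37 with single arrays left out and -0.23 without wild-type arrays 1 and 2. The number of the 10 called was 0 in every alternative except array weights, where it was 1 (Esam), with a weight of 0.169 for SOD1G93A array 1. The count of all genes called, 25, was far less stable: 7 with Agilent's processed signals and 7 with the series table, 3 with normexp offset 0, 1 with median centring, 16 of 34821 genes with no filter, 424 with array weights, 7 without wild-type arrays 1 and 2, 234 with the 6 arrays numbered 2 to 4, and 3 to 180 with single arrays left out (180 without SOD1G93A array 1). Of the called genes 56% were lower in SOD1G93A nerve, and 100% of the 3, 1 and 7 called with offset 0, median centring and without wild-type arrays 1 and 2. It was also 100% of the 1 called with the replicate block, and 53.9% to 100% with single arrays left out. The share was 46.4% with Cy3 alone, 49.8% with array weights and 48.7% with the 6 arrays numbered 2 to 4. The cause was not tested.

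Arrays share replicate numbers, but over all genes the numbers did not pair them. Same-numbered arrays correlated at -0.16, 0.04, -0.11 and 0.10 in their deviations, and 0 of 4 SOD1G93A arrays correlated best with their own number. With the replicate block 1 gene was called, and 0 of the 10. The block lowered the SE of all of the 10 except Esam, from 0.26 to 0.12 for Ly6c1 and from 0.22 to 0.11 for Sox18. That of Esam went from 0.14 to 0.15. Dim signal limits Tek most, which missed the background flag on 1 SOD1G93A array.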

Other observations

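Macrophage genes ran the other way from the endothelial genes. All 13 measured were higher in SOD1G93A nerve, 6 of them at an unadjusted limma p under 0.05, beside 4.84% of all genes, and 0 called, with a median difference of 0.47, and 0.66 without wild-type arrays 1 and 2. SOD1G93A array 1 was an exception, with a centred median of -0.44, while the other SOD1G93A arrays had 0.36 to 0.76, against -0.49 to -0.08 on the wild-type arrays. Of 6 monocyte genes 5 were lower, with a median of -0.13, but without wild-type arrays 1 and 2 only 2 were lower, with a median of 0.06. Of 12 fibroblast genes 9 were lower, with a median of -0.09. Red blood cell genes, 6 of 7 lower, had a median of -0.04, and the 4 measured lymphatic genes had a median of 0.01. Schwann cell genes had a median of 0.12, with 1 of 14 lower, and their centred median was 0.46 on SOD1G93A array 1 and -0.10 to -0.05 on the other SOD1G93A arrays, against -0.30 to 0.19 on the wild-type arrays.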
